A study of Mus musculus with 4 samples.

Results

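Canonical Polycomb repressive complex 1 (PRC1) was followed here through 9 of its subunit genes: the chromobox genes Cbx2, Cbx6, Cbx7 and Cbx8, the polyhomeotic genes Phc1, Phc2 and Phc3, and the Pcgf genes Pcgf2 and Bmi1 (also called Pcgf4). The members are all probe sets whose annotated symbol is exactly one of these names, which gave 18 probe sets of 9 genes out of 45037 tested probe sets and 18193 genes. The rule goes by gene name, although the set was proposed with earlier results of these data known. All 4 arrays come from F9, a mouse embryonal carcinoma line resembling undifferentiated embryonic cells. In 2 arrays (shPhf19) the cells carried a pLKO.1 lentiviral hairpin against Phf19, and in 2 arrays (shVector) they carried the pLKO.1 vector control. Every culture had been infected and selected with puromycin as a stable population, so no array shows uninfected cells. The labels call the arrays of a group biological replicates without saying how many hairpin sequences or infections lie behind them, so each p-value reflects only how far these particular arrays spread, and that spread may be partly technical.

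Canonical PRC1 joins a RING1 ubiquitin ligase to a Pcgf protein, a chromobox protein and a polyhomeotic protein. The chromobox protein reads H3K27me3, the trimethyl mark on histone H3 that Polycomb repressive complex 2 (PRC2) lays down. The polyhomeotic protein can polymerise and compact the chromatin, and the ligase ubiquitylates histone H2A. Mouse embryonic stem cells mainly use Cbx7, and differentiating cells turn to other chromobox proteins. Phf19 encodes a Polycomb-like partner of PRC2, and the comparison shows how transcripts of these subunits stood after its knockdown.

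Values are log2 expression as deposited, with 1 value per probe set and array. Array medians lay between 5.75 and 5.77, and the SD over probe sets of the difference between replicate arrays was 0.149 in shPhf19 and 0.192 in shVector. The targeted gene had 2 probe sets. For Phf19, 1427920_at read 5.08 and 5.17 in the shPhf19 arrays, against 6.07 and 6.14 in the shVector arrays, and 1431857_at read 6.05 and 6.26 in shPhf19, against 6.32 and 6.11 in shVector. The first fell (change -0.98 ± 0.10 SE, limma adjusted p = 0.0108) and the second did not pass (-0.06 ± 0.12, limma adjusted p = 0.928), so only 1 of them shows the knockdown. Embryonal carcinoma markers were bright on every array: the log2 of their summed signal over 10 genes was 16.21 and 16.21 in shPhf19, against 16.20 and 16.25 in shVector, and none of the 10 passed the test. The sum weights the brightest genes most. At limma's unadjusted p under 0.05 there were 4 of 10, beside 2744 of 18193 genes. Nanog was lower (-0.26 ± 0.05 SE), and Sall4 (0.17), Utf1 (0.15) and Fgf4 (0.19) were higher. A second Sall4 probe set, 1424153_s_at, was at -0.27.

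None of the 18 canonical PRC1 probe sets passed limma's test at an adjusted p under 0.05, where 1.41% of all probe sets were called. At an unadjusted p under 0.05 there were 5 of 18, against 12.7% of all probe sets. The 5 were 1 probe set of Cbx2 and 1 of Cbx6, both lower in shPhf19, and 1 of Phc1 and both of Bmi1, all higher. The groups did not overlap for 10 of 18 members, as they did not for 40.5% of all probe sets. The median change of the 18 was 0.01, and that of all probe sets was -0.01. With 2 arrays a group, many probe sets across the whole array are apart between groups, and the members are therefore described by their values.

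**Figure D1:**
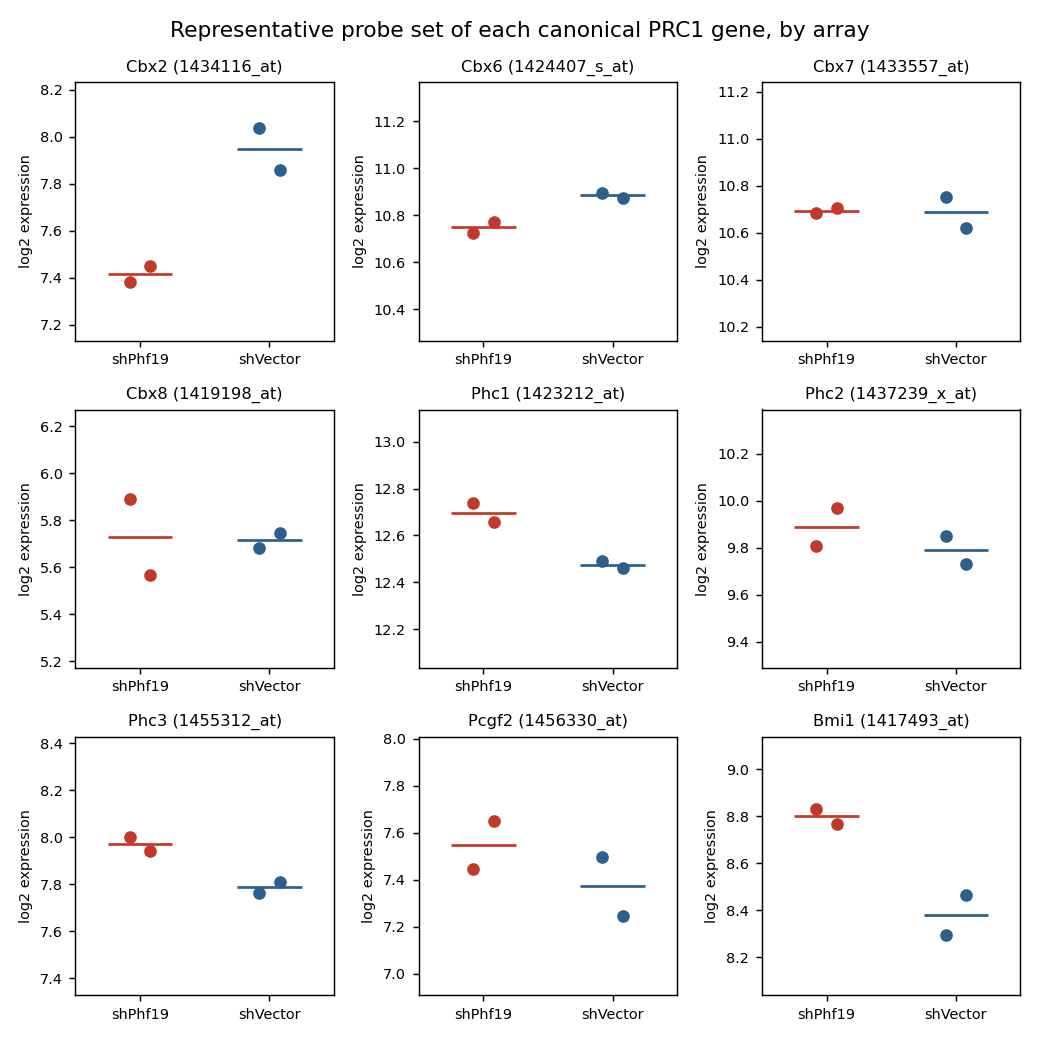
Log2 expression (vertical axes, each spanning 1.1 units) of the representative probe set of each of the 9 genes, which is the one with the highest mean over the 4 arrays. Points are arrays, shPhf19 left and shVector right, and bars are means of 2; the groups are apart for Cbx2, Cbx6, Phc1, Phc3 and Bmi1 and overlap for Cbx7, Cbx8, Phc2 and Pcgf2.

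Among the chromobox genes, Cbx2 had the largest difference. Cbx2 encodes a chromobox protein that can itself compact nucleosomes and is needed for normal skeletal patterning and gonad development in the mouse. By 1434116_at it read 7.38 and 7.45 in the shPhf19 arrays, against 8.04 and 7.86 in the shVector arrays. Both shPhf19 arrays lay below both shVector arrays, and the gap between groups was wider than that between replicates of either. The change was -0.53 ± 0.10 (SE), or 69.2% of the shVector signal with a 95% interval of 59.0% to 81.3%, and limma's adjusted p was 0.0643. This was the one member to cross the threshold under any setting tried on single probe sets, with limma adjusted p = 0.0395 when the dimmer 50% of probe sets were left out, over a range of 0.0395 to 0.864. The other Cbx2 probe set, 1422059_at, was dim, at 3.42 and 3.46 in shPhf19, against 3.46 and 3.28 in shVector. Its change was 0.07 (95% interval -0.17 to 0.31). It belongs to the lowest 25% of probe sets and may read background, which cannot be settled without detection calls. With the mean of both probe sets as the value of the gene, Cbx2 was at -0.23 ± 0.09 (limma adjusted p = 0.279 over 18193 genes).

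Cbx6, another chromobox paralog, had lower values in shPhf19 by both probe sets. The representative 1424407_s_at read 10.72 and 10.77 in shPhf19, against 10.90 and 10.87 in shVector. The second, 1429290_at, read 8.46 and 8.49 in shPhf19, against 8.72 and 8.62 in shVector. In both the shPhf19 arrays lay below the shVector arrays. The changes were -0.14 ± 0.06 and -0.20 ± 0.08 (SE), with limma adjusted p of 0.41 and 0.367, so neither passed. The suffix _s_at marks probes that can also bind related transcripts.

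Cbx7 encodes the main chromobox protein of PRC1 in mouse embryonic stem cells. Its representative probe set 1433557_at read 10.68 and 10.71 in shPhf19, between the shVector values of 10.75 and 10.62. The change was 0.01 with a 95% interval of -0.16 to 0.17 (limma adjusted p = 0.99). That interval excludes a change as large as the one estimated for Cbx2 in either direction, but not a small one. The dimmer 1420039_s_at (-0.14 ± 0.10 SE) and 1449713_at (-0.07 ± 0.09) lay below 0 with groups apart, and neither passed. For 1449713_at the groups were barely apart, at 4.0777 and 4.0683 in shPhf19, against 4.1966 and 4.0795 in shVector. Such low values may be background.

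Cbx8 encodes a chromobox protein that takes part in PRC1 of differentiating cells. By 1419198_at it read 5.89 and 5.57 in shPhf19, a wider gap than between the 5.68 and 5.75 of shVector. By 1419199_at it read 4.41 and 4.28 in shPhf19, against 4.32 and 4.61 in shVector. The groups overlapped for both probe sets. The changes were 0.02 (95% interval -0.29 to 0.32) and -0.12 (-0.42 to 0.18), and leaving out 1 array turned the sign of each. Cbx8 and Cbx2 are neighbours on mouse chromosome 11, with 0 protein-coding genes between them in RefSeq. Within each array, the log2 ratio of the representative Cbx2 to Cbx8 probe sets, set against its shVector mean, was -0.74 and -0.35 in shPhf19, against 0.12 and -0.12 in shVector. The ratio of Cbx2 to Cbx7 was -0.56 and -0.52 in shPhf19, against 0.03 and -0.03 in shVector. These pairs were chosen after the values were seen and were not tested. They restate, within arrays, the lower Cbx2 signal of 1434116_at.

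The polyhomeotic genes were level or higher. Phc1 encodes a SAM-domain protein whose polymers cluster Polycomb-bound chromatin. By its only probe set, 1423212_at, it read 12.74 and 12.66 in shPhf19, against 12.49 and 12.46 in shVector. The shPhf19 arrays were both higher, by a margin above the gap between replicates. The change was 0.22 ± 0.05 (SE), or 1.17-fold with an interval of the log2 change from 0.10 to 0.34, and limma's adjusted p of 0.116 did not pass.

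Phc3, another SAM-domain paralog, read 8.0 and 7.94 in shPhf19, against 7.76 and 7.81 in shVector, by 1455312_at. The groups were apart, and the change of 0.18 ± 0.08 (SE) did not pass (limma adjusted p = 0.422). Its second probe set, 1443651_at, was dim and overlapped between groups, at 3.09 and 3.23 in shPhf19, against 3.12 and 3.33 in shVector. Phc2, the paralog whose polymerisation is needed for Polycomb clustering in mouse tissues, overlapped by both probe sets. By 1437239_x_at it read 9.81 and 9.97 in shPhf19, against 9.85 and 9.73 in shVector, and by 1416048_at the change was -0.02 with a 95% interval of -0.21 to 0.17. The log2 ratio of Phc1 to Phc3 hardly moved, by 0.04 between groups, and overlapped.

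The Pcgf genes supply the RING partner that places the ligase in canonical PRC1. Bmi1, known as a repressor of the Cdkn2a locus and a self-renewal gene of adult stem cells, was higher in shPhf19 by both probe sets. By 1417493_at it read 8.83 and 8.77 in shPhf19, against 8.29 and 8.46 in shVector. By 1448733_at it read 6.88 and 7.13 in shPhf19, against 6.44 and 6.60 in shVector. No shPhf19 value reached down to a shVector value in either. The changes were 0.42 ± 0.09 and 0.48 ± 0.12 (SE), or 1.34-fold and 1.40-fold, with limma adjusted p of 0.101 and 0.142. With the mean of both probe sets as the value of the gene, Bmi1 was at 0.45 ± 0.08 and passed (limma adjusted p = 0.0403 over 18193 genes). Bmi1 was the one member for which that choice changed the call. The choice also tests fewer units: Phc1, with 1 probe set and so the same value, moved from a limma adjusted p of 0.116 to 0.0702.

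Pcgf2, also called Mel18, is the paralog that can take the place of Bmi1 in the complex. By 1456330_at it read 7.45 and 7.65 in shPhf19, against 7.50 and 7.25 in shVector, and the groups overlapped. By 1420645_at it read 6.43 and 6.48 in shPhf19, against 6.36 and 6.23 in shVector, and they did not. The changes, 0.18 ± 0.12 and 0.16 ± 0.09 (SE), did not pass (limma adjusted p = 0.645 and 0.568). The log2 ratio of the representative Bmi1 to Pcgf2 probe sets, set against its shVector mean, was 0.38 and 0.11 in shPhf19, against -0.21 and 0.21 in shVector. These overlap, so this pair of probe sets does not separate the change of Bmi1 from that of Pcgf2. Pairings with 1420645_at or 1448733_at, by the array values given above, were apart and higher in shPhf19. No ratio was tested.

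**Figure D2:**
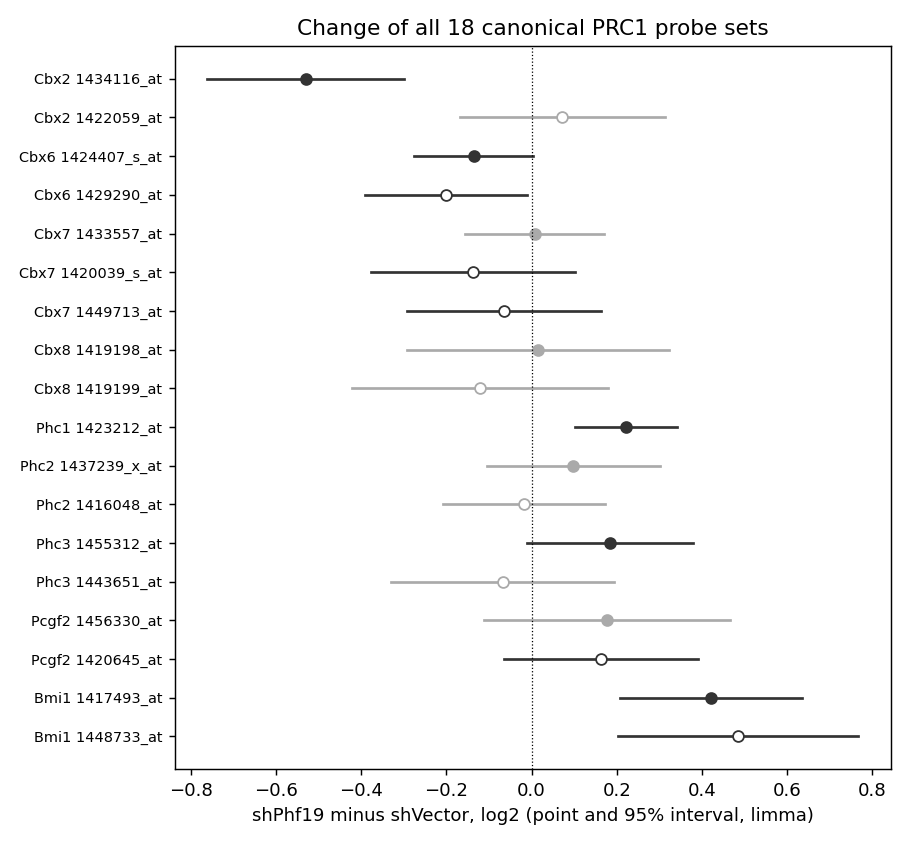
Change of all 18 probe sets (shPhf19 minus shVector, log2, horizontal axis) with limma's 95% interval; filled points are representative probe sets, and dark ones have groups that do not overlap. Cbx2 1434116_at stands at -0.53 and both Bmi1 probe sets above 0.4, while most other intervals span 0.

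By role, the probe sets leaned apart. Of 9 chromobox probe sets, 6 were below 0 and 3 above (median -0.12), and all 5 with groups apart were lower in shPhf19. Among these 5, the dim Cbx7 1449713_at was barely apart. Of 9 polyhomeotic and Pcgf probe sets, 7 were above 0 and 2 below (median 0.18), and all 5 with groups apart were higher. Over all probe sets the groups were apart and higher in 19.4% and apart and lower in 21%. By representative probe set the chromobox genes were split, with Cbx2 (-0.53) and Cbx6 (-0.14) below 0 and Cbx7 (0.01) and Cbx8 (0.02) just above. The Cbx7 and Cbx8 probe sets below 0 were the dimmer ones of their genes. The polyhomeotic and Pcgf genes were all above 0 by that measure, from 0.10 (Phc2) to 0.42 (Bmi1). Grouping by role was read after the values were seen, and probe sets of a gene share their RNA, so this split has no test.

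Extraembryonic endoderm markers, for cells that F9 cultures can form, differed beside these genes. The log2 of their summed signal over 10 genes was 10.21 and 10.18 in shPhf19, against 9.89 and 10.08 in shVector, and 3 of 10 rose by their representative probe sets (Gata6, Dab2 and Cubn), where 1.15% of all genes rose and 0.863% fell. Cubn rose by 1426990_at too (1.34 ± 0.12 SE, limma adjusted p = 0.0098). Further probe sets of Gata6 were at 0.08 and 0.00 and those of Dab2 at 0.44, 0.23 and 0.09, and none of these passed. Sox17 did not pass by its representative 1421657_a_at (0.27 ± 0.11, limma adjusted p = 0.371), while its 1429177_x_at rose (1.41 ± 0.12 SE, limma adjusted p = 0.00875). Of the other genes, Gata4 was at 0.38, Foxa2 at 0.30, Ttr at 0.00, Afp at -0.17, Thbd at -0.18 and Sox7 at -0.24, and none passed. Without detection calls, a dim marker cannot be called present or absent. Neural markers stood at 9.66 and 9.72 in shPhf19, against 10.01 and 9.98 in shVector, over 6 genes, of which 1 rose (Sox1) and 1 fell (Tubb3). The rest did not pass, with Pax6 at -1.12 (limma adjusted p = 0.0805), Map2 at -0.47, Neurog1 at -0.20 and Neurog2 at 0.07. Further Pax6 probe sets were at -0.03 (1456342_at, of similar brightness), -0.17, -0.18 and -0.40, and none of these passed. A dimmer Sox1 probe set, 1422205_at, was at -0.15 and did not pass. Fibroblast markers stood at 7.63 and 7.59 in shPhf19, against 7.56 and 7.56 in shVector, over 7 genes, and none passed. The ratio of 3' to 5' signal of beta-actin was 0.92 and 1.03 in shPhf19, against 1.16 and 0.83 in shVector (log2), and overlapped. The part of any of these in the PRC1 values was not tested. In bulk RNA, fewer cells of a type and less RNA per cell cannot be told apart.

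The other genes of the pathway give the setting. Of 5 further canonical PRC1 and shared RING genes measured, none passed and all 5 were above 0 (median 0.11, against 0.00 for all genes). The ligase genes Ring1 (0.06 ± 0.08 SE) and Rnf2 (0.06 ± 0.08) were near 0. Scml2, a Polycomb protein of the germ line, had the smallest p. It read 5.76 and 5.55 in shPhf19, against 4.59 and 5.13 in shVector, a change of 0.80 ± 0.18 (limma adjusted p = 0.125), with a wide gap between the shVector arrays. Its other probe set, 1421514_a_at, was at 0.23 ± 0.10 (limma adjusted p = 0.422). Scmh1, a partner of the polyhomeotic proteins, had the next smallest p (0.13 ± 0.10, limma adjusted p = 0.693).

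Of 17 variant PRC1 genes, which lack a chromobox reader of the Polycomb kind, 2 rose and none fell (median 0.04), beside the 1.15% and 0.863% of all genes. E2f6, a DNA-binding factor of the Pcgf6 complex, read 9.84 and 9.80 in shPhf19, against 9.20 and 9.34 in shVector (change 0.55 ± 0.08 SE, limma adjusted p = 0.0321). Its other probe set, 1437914_at, was at 0.04 ± 0.09. Kdm2b, which brings the Pcgf1 complex to CpG islands, rose by both probe sets, with 11.45 and 11.44 in shPhf19, against 11.07 and 10.95 in shVector, by its representative 1459861_s_at (0.43 ± 0.06, limma adjusted p = 0.0322). Of 13 PRC2 genes none passed by its representative probe set (median 0.01), with Jarid2 (0.30 ± 0.05, limma adjusted p = 0.0593) and Aebp2 (0.28 ± 0.08, limma adjusted p = 0.237) at the smallest p. A second Jarid2 probe set, 1422697_s_at, did pass (0.28 ± 0.04, limma adjusted p = 0.0467), as did 1427920_at of the targeted Phf19 given above. The 3 HP1 chromobox genes, whose products read H3K9 methylation and not H3K27me3, did not pass either. Cbx5 was at 0.25 ± 0.07 (limma adjusted p = 0.192) and Cbx3 at 0.13 ± 0.10 (limma adjusted p = 0.667). The only single-gene probe set of Cbx3 was dim, at 5.20 and 5.25 in shPhf19, against 5.15 and 5.04 in shVector, and may read background. The dimmer Cbx5 probe sets were at 0.02, -0.03, -0.13 and -0.17.

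**Figure D3:**
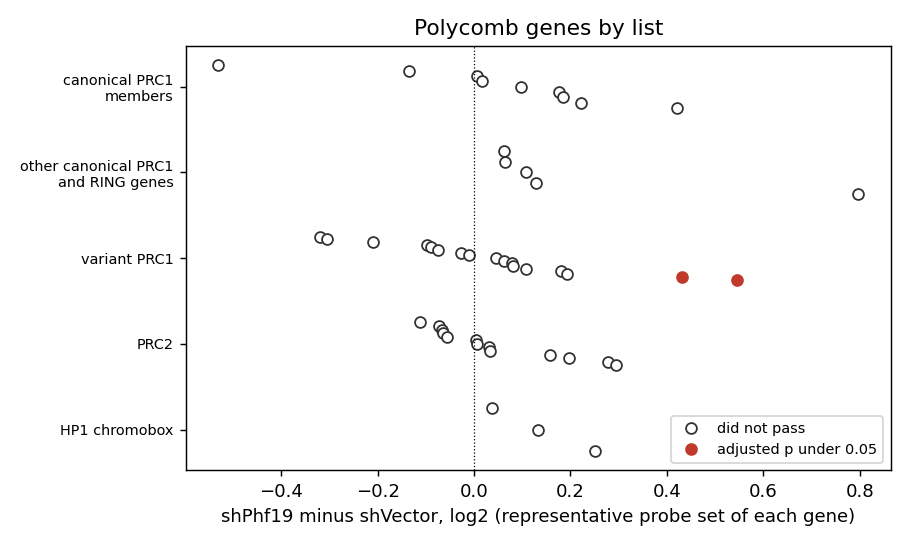
Change of each gene by its representative probe set (shPhf19 minus shVector, log2, horizontal axis) for the 9 canonical PRC1 members and 4 lists of other Polycomb or chromobox genes, 1 row per list. Filled points, E2f6 and Kdm2b, had an adjusted p under 0.05; the members spread from -0.53 (Cbx2) to 0.42 (Bmi1).

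The promoters of the members were read from RefSeq (GRCm38.p6), as windows from 250 bases before a gene's start to 50 after it. Of the 9 genes 8 had an entry, with 10 windows in all because Phc2 has several starts. Cbx2 had none. Phc1 and Bmi1 are shown as the higher members with the smallest p, from chr6:122340228-122340477 (minus strand) and chr2:18676768-18677017 (plus strand), 5′ to 3′ up to the base before the start, with CACGTG in capitals where it occurs.
Phc1: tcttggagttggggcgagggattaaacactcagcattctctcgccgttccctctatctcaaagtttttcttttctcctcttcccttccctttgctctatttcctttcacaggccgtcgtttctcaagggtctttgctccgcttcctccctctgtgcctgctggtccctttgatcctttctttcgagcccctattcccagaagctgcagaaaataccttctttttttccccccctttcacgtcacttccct
Bmi1: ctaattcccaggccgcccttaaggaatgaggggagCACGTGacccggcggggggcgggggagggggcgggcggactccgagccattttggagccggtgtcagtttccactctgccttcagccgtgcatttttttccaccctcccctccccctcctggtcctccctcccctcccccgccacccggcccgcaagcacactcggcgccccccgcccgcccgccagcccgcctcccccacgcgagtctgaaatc
The Bmi1 window holds 23 CpG dinucleotides over its 300 bases and that of Phc1 holds 9, against a median of 7 over all 32851 windows. Member windows ranged from 2 to 45.

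CACGTG, the E-box that Myc, Max and related factors can bind, was searched in the windows after it had been noticed in them. It reads the same on both strands. It occurred in 6 of the 10 member windows, 1 for each of 6 genes, against 7.15% of all windows and 11.3% of those with 15 or more CpG. Among the members' 7 windows with 15 or more CpG, 5 held it. The motif was picked from these same windows, so the shares do not test enrichment. The 6 occurrences are shown with 20 bases on each side, in the direction of the gene and with the motif in capitals, at chr15:79834334-79834379 (minus), chr11:119040986-119041031 (minus), chr4:128654625-128654670 (plus), chr3:30969472-30969517 (minus), chr11:97699760-97699805 (minus) and chr2:18676783-18676828 (plus).
Cbx6: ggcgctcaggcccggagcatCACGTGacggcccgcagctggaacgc
Cbx8: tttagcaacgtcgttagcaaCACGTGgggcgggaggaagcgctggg
Phc2: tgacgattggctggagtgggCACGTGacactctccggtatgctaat
Phc3: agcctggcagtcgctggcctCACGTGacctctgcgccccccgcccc
Pcgf2: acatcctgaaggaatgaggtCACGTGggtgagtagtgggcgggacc
Bmi1: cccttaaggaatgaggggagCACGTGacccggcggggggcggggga
The motif began between 26 bases (Cbx6) and 215 bases (Bmi1) before the start. Genes with it lay on both sides of 0 in the comparison, from Cbx6 at -0.14 to Bmi1 at 0.42, and Phc1 and Cbx7 had none in these windows. A match describes the letters and not the binding of a factor.

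**Figure D4:**
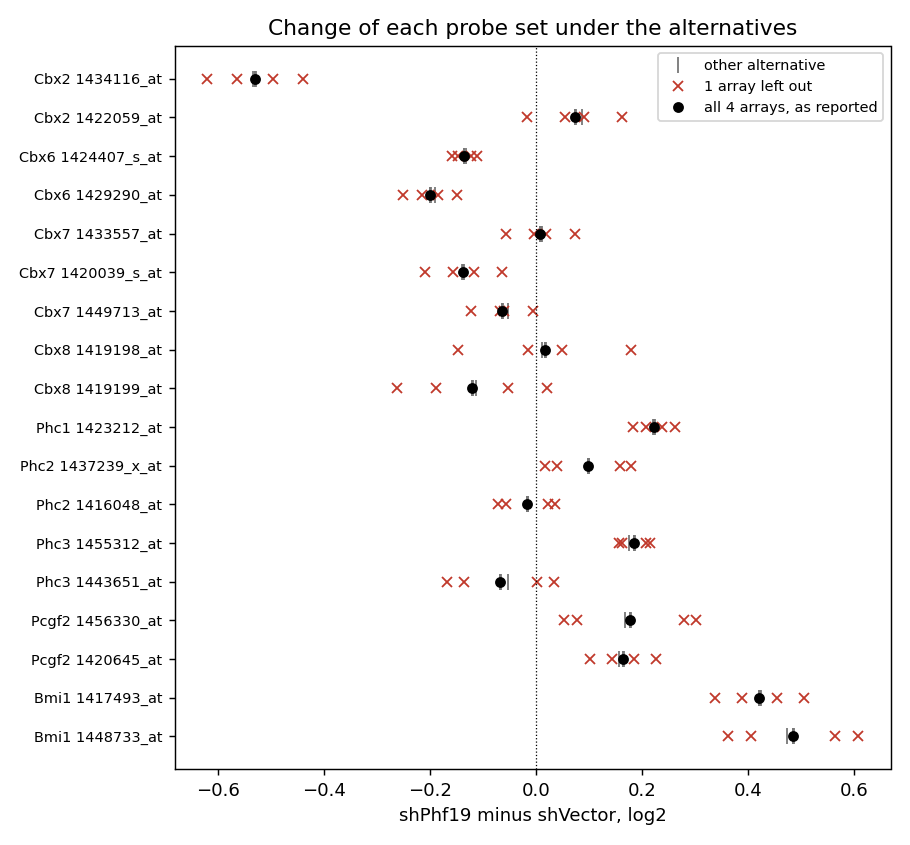
Change of each probe set (shPhf19 minus shVector, log2, horizontal axis) with all 4 arrays (black), with 1 array left out (crosses) and under the other alternatives (ticks). Cbx2 1434116_at stayed between -0.62 and -0.44 and the Bmi1 probe sets between 0.34 and 0.61, whereas 1 or more fits for Cbx7 1433557_at, both Cbx8 probe sets, Phc2 1416048_at, Phc3 1443651_at and Cbx2 1422059_at crossed 0.

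With any 1 array left out, Cbx2 by 1434116_at ran from -0.62 to -0.44, Phc1 from 0.18 to 0.26, Phc3 by 1455312_at from 0.16 to 0.21, and Bmi1 from 0.34 to 0.50 by 1417493_at and from 0.36 to 0.61 by 1448733_at. Cbx6 ran from -0.16 to -0.11 by 1424407_s_at and from -0.25 to -0.15 by 1429290_at. These members kept their sign in each of those fits, and no member passed in any of them. Over the whole array the same fits called 0 probe sets with limma, with 2539 to 6942 at an unadjusted p under 0.05.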

How the data were processed

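RNA of 4 F9 cultures had been hybridised to Affymetrix mouse 430 2.0 arrays, per the labels. The deposited table holds log2 values, a scale read from its range of 2.31 to 14.7, and its nearly equal medians show that the authors had normalized the arrays; for the software, probe summary and background step, no source used here gives the method. Without detection calls, a low value may be background, and the number of arrays limits precision.

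Of 45101 probe sets, 64 controls were left out. GEO's platform annotation named 34945 with 1 gene, 932 with several and 9160 with none. RefSeq held the gene numbers of 34741 and changed 0 symbols. The comparison, shPhf19 minus shVector, used limma 3.58.1 under R 4.3.3: lmFit and eBayes with an intensity trend. Two-sided p-values were adjusted by the Benjamini-Hochberg method across the 45037 probe sets tested. SE and intervals are limma's; residual degrees of freedom were 2, moderated to a median of 6.51. The fit was tested on simulated data. Deviations of same-numbered arrays correlated at -0.197, so no replicate term was used. The members and lists were chosen with earlier results of these data known. Named genes were all members, Phf19, and from each list the passing genes or else the 2 with the smallest p; Ring1, Rnf2 and the marker genes were named besides. List genes without a single-gene probe set were not analysed here. Alternatives covered variance moderation, normalization, dim-probe filters, replicate blocks, left-out arrays and the mean of a gene's probe sets.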

Additional observations from a re-analysis of the deposited data

How the results depend on the processing

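Of 216 changes of single probe sets or genes under the alternatives, 202 kept their direction and their side of the threshold, 12 turned their sign and 2 newly passed. The count of called members was 0, except 1 (Cbx2) without the lowest 50% of probe sets, where fewer probe sets are tested. Over all probe sets the count of 636 fell to 380 without an intensity trend and to 0 with the replicate block (3890 at an unadjusted p under 0.05), as with each array left out (0 to 0). The crossed replicate block, chosen after seeing the data because same-numbered arrays correlated at -0.197, called 596 in all and 0 members. Bmi1 passed with the mean of its probe sets (0.45), where fewer units are tested. Cbx2 shrank from -0.53 to -0.23 there, and Cbx7 (-0.065) and Cbx8 (-0.053) turned below 0. With 1 array left out, signs turned for Cbx2 1422059_at (-0.017 to 0.16), Cbx7 1433557_at (-0.058 to 0.072), Cbx8 1419198_at (-0.15 to 0.18) and 1419199_at (-0.26 to 0.020), Phc2 1416048_at (-0.072 to 0.036) and Phc3 1443651_at (-0.17 to 0.033). None of these was called, and the cause was not tested. A fit without an array leaves 1 array in a group, assumed to vary like the other group.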
